A study of Mus musculus with 28 samples.

Results

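The genes described here are the 30 genes of the module "MHC class I presentation and cross-presentation", a list of named genes of which each was found once in both deposited count tables, out of 55487 genes in all. They are the classical class I heavy chains H2-K1 and H2-D1, the other class I heavy chains H2-Q4, H2-Q6, H2-Q7, H2-T22, H2-T23 and H2-M3, the shared light chain B2m, and the class I-like Cd1d1. The peptide supply genes are Psmb8, Psmb9, Psmb10, Psme1, Psme2, Psme3, Npepps, Tap1, Tap2 and Erap1. The loading genes are Tapbp, Tapbpl, Calr, Canx and Pdia3, the transcription regulator is Nlrc5, and the cross-presentation genes are Wdfy4, Sec61a1, Sec22b and Lnpep. All 30 passed the filter on low counts in both experiments. RNA came from conventional dendritic cells (cDC) sorted from the spleen of C57BL/6 mice and sequenced in bulk, with 2 biological replicates in each of 14 groups. In experiment 1 the groups were hybrid cDC of Irf8 +32H/H and Irf8 +32H/+ mice, and cDC1 and cDC2 of Irf8 +32H/H, Irf8 +32H/+ and WT mice. In experiment 2 the groups were hybrid cDC of Irf8 +32H/H Nfil3-/-, Irf8 +32H/H Zeb2 -165D123 and Irf8 +32H/H mice, and cDC1 of Irf8 +32H/H Nfil3-/-, Irf8 +32H/H and WT mice. The Irf8 allele is shortened to H/+ and H/H hereafter, so every Nfil3-/- and Zeb2 -165D123 group was also H/H, as was its control. The labels describe neither the alteration of each allele nor the sort gates, nor do they give age or sex.

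Class I molecules carry short peptides to the cell surface, where CD8 T cells inspect them. The proteasome cuts the peptides, and dendritic cells use immunoproteasome subunits in place of the standard catalytic subunits for much of this work. The Tap1-Tap2 transporter moves the peptides into the endoplasmic reticulum, where Erap1 trims them and tapasin (Tapbp), calreticulin (Calr) and Pdia3 load them onto a heavy chain paired with B2m. In cross-presentation the antigen comes from outside the cell, for instance from a dead cell. Mouse cDC1 are known for cross-presentation to CD8 T cells and cDC2 for presentation on MHC class II to CD4 T cells. IRF8 is the transcription factor on which cDC1 development depends, and NFIL3 and ZEB2 act in a circuit that steers dendritic cell precursors between fates.

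Library totals ran between 23.4 and 38.2 M counts in experiment 1 and between 17.5 and 22.7 M in experiment 2. Irf8 stood at 837 and 831 counts per M (CPM, M standing for the prefix mega) in H/H cDC1 and 1220 and 1090 CPM in H/+ cDC1, against 2580 and 1960 CPM in WT cDC1. Nfil3 stood at 3.68 and 2.76 CPM in Nfil3-/- cDC1 against 36.9 and 35.7 CPM in H/H cDC1, and at 5.62 and 5.7 CPM in Nfil3-/- hybrid cDC against 41.5 and 55.3 CPM in H/H hybrid cDC. Zeb2 stood at 10.3 and 19.6 CPM in Zeb2 -165D123 hybrid cDC against 38.6 and 46.9 CPM in H/H hybrid cDC. The 10 cDC1 markers summed to 6160 and 5450 CPM in WT cDC1 against 480 and 472 CPM in WT cDC2, and the 10 cDC2 markers to 32.4 and 36.1 CPM in WT cDC1 against 1660 and 1620 CPM in WT cDC2. In each altered genotype of experiment 1, cDC1 markers in hybrid cDC (1630 to 2110 CPM) lay between those of cDC1 (2980 to 3870 CPM) and cDC2 (495 to 597 CPM). The cDC1 markers include Irf8 and the member Wdfy4, and the cDC2 markers include Zeb2, so the sums are not independent of these genes. None of these 20 markers was at 0 in a group other than Mgl2 in Zeb2 -165D123 hybrid cDC.

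Several of the members are neighbours. On chromosome 17 (GRCm38, GENCODE M21 gene spans), Psmb9 (chr17:34181987-34187764, minus strand) and Tap1 (chr17:34187553-34197225, plus strand) run in opposite directions from starts that overlap in this annotation, and reads from the overlap cannot be assigned without strand. They are followed by Psmb8 (chr17:34197721-34201454, plus strand) and Tap2 (chr17:34203527-34216321, plus strand), with H2-K1 (chr17:33996017-34000347, minus strand) on the same chromosome. B2m (chr2:122147686-122153083, plus strand) and Pdia3 (chr2:121413775-121438687, plus strand) lie on chromosome 2. 4 promoter windows are shown because Tap1 and Psmb9 moved together in the data, H2-K1 and B2m moved against them between cell types, and Pdia3 differed most between cDC1 and cDC2. The windows are from RefSeq on GRCm38.p6, written 5′ to 3′ on the strand of the named gene. Capitals mark the CCAAT box in either orientation (ATTGG on the other strand) and, in B2m, the core of the interferon-stimulated response element (GAAA, then any 2 bases, then GAAA). The Tap1 window is the 225 bases between the RefSeq starts of Psmb9 and Tap1 (chr17:34187331-34187555, plus strand). The others are the 250 bases before the RefSeq start of H2-K1 (chr17:34000348-34000597, minus strand), B2m (chr2:122147437-122147686, plus strand) and Pdia3 (chr2:121413652-121413901, plus strand), and the GENCODE start of Pdia3 lies inside its window.
Tap1: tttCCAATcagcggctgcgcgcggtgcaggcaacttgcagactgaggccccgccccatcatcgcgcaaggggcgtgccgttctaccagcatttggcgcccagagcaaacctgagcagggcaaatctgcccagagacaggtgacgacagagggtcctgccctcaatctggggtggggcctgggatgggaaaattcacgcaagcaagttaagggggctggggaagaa
H2-K1: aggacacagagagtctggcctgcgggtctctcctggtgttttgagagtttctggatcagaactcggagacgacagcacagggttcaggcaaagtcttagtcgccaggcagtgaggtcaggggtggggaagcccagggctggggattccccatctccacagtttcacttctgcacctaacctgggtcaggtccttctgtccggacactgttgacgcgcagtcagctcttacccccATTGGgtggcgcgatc
B2m: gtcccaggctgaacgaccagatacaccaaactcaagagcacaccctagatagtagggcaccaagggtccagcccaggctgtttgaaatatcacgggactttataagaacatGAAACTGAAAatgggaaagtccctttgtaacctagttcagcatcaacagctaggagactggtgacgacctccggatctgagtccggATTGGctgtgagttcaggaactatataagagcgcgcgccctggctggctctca
Pdia3: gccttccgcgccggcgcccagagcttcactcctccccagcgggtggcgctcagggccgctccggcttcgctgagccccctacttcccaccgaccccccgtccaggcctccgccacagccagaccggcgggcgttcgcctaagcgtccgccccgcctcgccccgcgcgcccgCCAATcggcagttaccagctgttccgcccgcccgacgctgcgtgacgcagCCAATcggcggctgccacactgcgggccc
RefSeq windows were at hand for 25 of the 30 members, and Tap2, Cd1d1, Nlrc5, Sec61a1 and Tapbpl were not matched. Both strands of the 250 bases before each start were searched. A member was counted if any of its windows held a match, whereas the shares are of all 32851 promoter windows of that length, counted singly. Where a gene has several windows, the counts and the shares are not like for like. The CCAAT box was found in 18 of the 25 members, against 33.8% of all windows. The interferon-stimulated response element core was found in 3 (B2m, H2-T22 and H2-T23), against 2.98% of all windows. The gamma-activated site TTCNNNGAA was found in 2 (H2-M3 and Psmb8), against 7.02%. The composite element of AP-1 and IRF factors (TTTC, then any 4 bases, then TGA) was found in 1 (H2-T22), against 3.82%, and that of ETS and IRF factors (GGAA, then any 2 bases, then GAAA), in 0 of the 25, against 2.3%. These are matches of letters and not binding sites.

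Read sharing limits the class I genes. Of the 50-base stretches of their transcripts, 34.5% in H2-T22 (mostly with H2-T10), 32.0% in H2-Q6, 26.4% in H2-Q7, 21.8% in H2-Q4, 19.1% in Cd1d1 (with Cd1d2), 13.6% in H2-T23, 12.8% in H2-D1 and 9.63% in H2-K1 occur in another gene. H2-M3 shared 0.576% and B2m none. How the authors divided such reads is not given in the sources used here. Values of the H2-Q genes, H2-T22, Cd1d1 and Cd1d2 are therefore uncertain between near-identical copies.

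The first question was how far the module separates the normal cell types. WT cDC1 had more RNA than WT cDC2 for most genes between the proteasome and the loading complex, for Wdfy4 and for Cd1d1, and less for H2-K1, B2m, H2-Q4 and Lnpep. With edgeR's quasi-likelihood test, 18 of 30 members were higher and 4 lower in WT cDC1 (adjusted p below 0.05), whereas 20.5% of all 16036 genes tested were higher and 23.4% lower (44.0% in either direction). The median log2 fold change of cDC1 over cDC2 was 0.59 for the members and -0.07 for all genes. Bulk values do not tell fewer cells of a type and less RNA per cell apart.

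**Figure D1:**
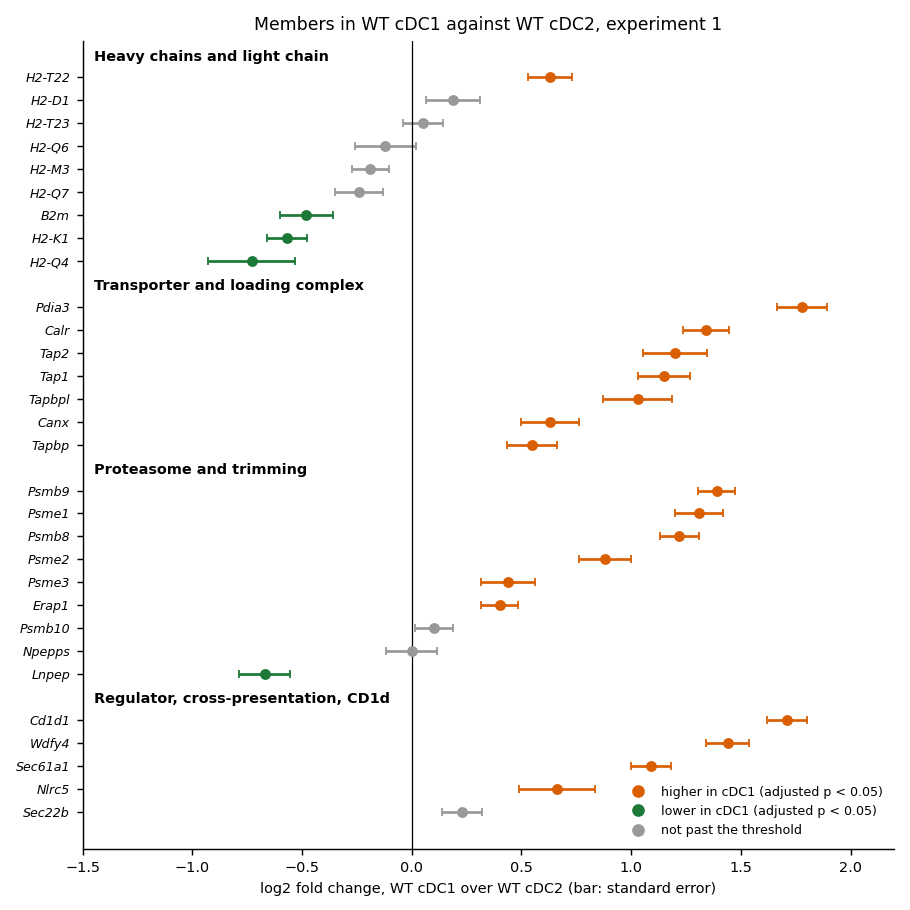
Log2 fold change of WT cDC1 over WT cDC2 for each of the 30 members, grouped by role, with bars for the standard error (2 libraries a group) and colours for the test result. Pdia3 (1.78), Cd1d1 (1.71) and Wdfy4 (1.44) lie farthest on the cDC1 side, and H2-Q4 (-0.73), Lnpep (-0.67), H2-K1 (-0.57) and B2m (-0.48) on the cDC2 side.

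Among the heavy chains, H2-K1 stood at 1630 and 1430 CPM in WT cDC1 against 2330 and 2230 CPM in WT cDC2. It was lower in both cDC1 libraries, with a log2 fold change of -0.57 (1.49-fold, SE 0.0911, adjusted p = 0.000115). Its light chain B2m stood at 2280 and 2480 CPM in WT cDC1 against 3360 and 3260 CPM in WT cDC2, and fell as well (log2 -0.48, SE 0.119, adjusted p = 0.00435). H2-D1, the other classical heavy chain, stood at 4820 and 4120 CPM in WT cDC1 against 3730 and 4080 CPM in WT cDC2. The difference of H2-D1 did not pass the threshold (log2 0.19, SE 0.123, adjusted p = 0.222), so H2-K1 and B2m differed between the cell types and H2-D1 was not shown to. Each gene was divided by its transcript length, taken here as the summed length of all its annotated exons. On that scale the ratio of H2-K1 to H2-D1 was 0.298 and 0.305 in WT cDC1 against 0.548 and 0.480 in WT cDC2. H2-Q4 was lower, at 7.59 and 7.99 CPM in WT cDC1 against 13.7 and 12.2 CPM in WT cDC2 (log2 -0.73, adjusted p = 0.00708). H2-T22, which some gamma delta T cells recognise, was higher at 122 ± 1.97 CPM in WT cDC1 against 78.5 ± 0.539 CPM in WT cDC2 (mean ± SD, n = 2 each, log2 0.63, adjusted p = 0.000102). H2-Q6, H2-Q7, H2-T23 and H2-M3 did not pass, with log2 values between -0.24 and 0.05.

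RNA of most peptide supply genes was higher in WT cDC1 than in WT cDC2. Psmb9 and Psmb8 are the immunoproteasome counterparts of the standard subunits Psmb6 and Psmb5, and Psmb10 is that of Psmb7. Psmb9 stood at 548 and 496 CPM in WT cDC1 against 202 and 195 CPM in WT cDC2 (log2 1.39, SE 0.0851, adjusted p = 4.1e-09). Psmb8 stood at 994 and 925 CPM in WT cDC1 against 413 and 411 CPM in WT cDC2 (log2 1.22, SE 0.0892, adjusted p = 2.98e-08). For both genes the groups lay far apart. Psmb10 did not follow them, with 146 and 142 CPM in WT cDC1 against 134 and 134 CPM in WT cDC2 (log2 0.10, adjusted p = 0.36). All 15 listed standard proteasome genes were also higher in cDC1, with Psmb7 at log2 1.09. Per transcript length, the ratio of Psmb9 to Psmb6 was 1.11 and 0.975 in WT cDC1 against 0.582 and 0.587 in WT cDC2, whereas the ratio of Psmb10 to Psmb7 was 1.85 and 1.78 in WT cDC1 against 3.37 and 3.82 in WT cDC2. The proteasome activator subunits Psme1 (log2 1.31), Psme2 (0.88) and Psme3 (0.44) were higher in cDC1. Without WT cDC1 replicate 2 or WT cDC2 replicate 1 the call of Psme3 was lost (adjusted p = 0.0726 and 0.0653).

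The transporter and the loading machinery followed the same direction. Tap1 stood at 394 and 353 CPM in WT cDC1 against 161 and 177 CPM in WT cDC2 (log2 1.15, SE 0.117, adjusted p = 1.22e-06). Tap2 stood at 409 and 340 CPM in WT cDC1 against 152 and 175 CPM in WT cDC2 (log2 1.20, SE 0.145, adjusted p = 8.05e-06). In both genes each cDC1 library was above each cDC2 library. Pdia3, the thiol oxidoreductase of the loading complex, stood at 1510 and 1540 CPM in WT cDC1 against 397 and 489 CPM in WT cDC2, and this was the largest fold among the members (3.45-fold, log2 1.78, SE 0.115, adjusted p = 7.22e-09). Calr stood at 730 and 685 CPM in WT cDC1 against 270 and 287 CPM in WT cDC2 (log2 1.34, SE 0.105, adjusted p = 6.37e-08). Tapbpl, a peptide editor outside the loading complex (log2 1.03), the lectin chaperone Canx (0.63), Tapbp (0.55, adjusted p = 0.00113) and Erap1 (0.40) were higher too. Of 10 listed genes for protein folding in the endoplasmic reticulum in general, 9 were higher and none lower, led by Hsp90b1 (log2 1.67), P4hb (1.39) and Pdia6 (1.36). Of 7 further cytosolic and other peptidases, 5 were higher and 1 lower, led by Lap3 (log2 1.42).

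Nlrc5, the transactivator of class I promoters, stood at 70.4 and 71.3 CPM in WT cDC1 against 47.6 and 41.9 CPM in WT cDC2 (log2 0.66, SE 0.173, adjusted p = 0.00633). Without WT cDC2 replicate 2 its adjusted p was 0.0601, and without WT cDC2 replicate 1 that of H2-Q4 was 0.0503. Of 13 other listed regulators of class I transcription none was higher and 3 were lower in cDC1, namely Rfx5 (log2 -0.93), Rfxank (-0.78) and Stat2 (-0.73). Of 30 listed interferon-stimulated genes, 4 were higher and 17 lower, with Rtp4 at log2 -7.38 and Oas2 at -6.74. Tap1, Psmb8 and Psmb9 were therefore higher in the cell type in which most listed interferon-stimulated genes were lower.

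Wdfy4 is needed for cross-presentation of cell-associated antigen by mouse cDC1. It stood at 773 and 760 CPM in WT cDC1 against 280 and 287 CPM in WT cDC2 (2.71-fold, log2 1.44, SE 0.0968, adjusted p = 1.22e-08). Sec61a1, the translocon channel subunit proposed to export antigen to the cytosol, stood at 356 and 352 CPM in WT cDC1 against 164 and 169 CPM in WT cDC2 (log2 1.09, adjusted p = 1.31e-07). Both genes were clear of overlap. Lnpep, an aminopeptidase of endosomes, went the other way, at 38.2 and 37.7 CPM in WT cDC1 against 61.7 and 58.7 CPM in WT cDC2 (log2 -0.67, SE 0.117, adjusted p = 0.000277). The SNARE protein gene Sec22b (log2 0.23, adjusted p = 0.0514) and the cytosolic aminopeptidase gene Npepps (0.00) did not pass. Cd1d1 presents lipids to NKT cells. It stood at 260 and 269 CPM in WT cDC1 against 79.6 and 82.7 CPM in WT cDC2 (3.26-fold, log2 1.71, SE 0.0911, adjusted p = 9.03e-10). Of 19 other listed cross-presentation genes tested, 10 were higher and 5 lower, with Clec9a, a receptor for dead cells, at 32.0-fold higher and Cybb, a subunit of the phagosomal NADPH oxidase, at log2 -7.11.

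Compared between genes per transcript length, B2m had the highest mean level in WT cDC1 at 2770 CPM per kb, before H2-D1 (1730), H2-K1 (522) and Pdia3 (486). The length takes in every annotated exon, so the order between genes depends on the annotation. In WT cDC2 the order was B2m (3850 CPM per kb), H2-D1 (1510), H2-K1 (776) and H2-T23 (274). Npepps was lowest in both, at 2.63 CPM per kb in WT cDC1 and 2.62 in WT cDC2. Over the 8 groups of experiment 1, the highest group mean of Cd1d1 was 5.01 times the lowest, that of Pdia3 3.76, of Calr 2.83, of Psme1 2.76, of Wdfy4 2.71 and of Psmb9 2.63. At the other end were H2-D1 (1.27), Sec22b (1.25), H2-M3 (1.22) and Npepps (1.14), whose group means lay close together. WT cDC1 was the highest of the 8 groups for 16 members and H/H hybrid cDC for 8. In experiment 2, which held no cDC2, the ratio ran between 1.19 (B2m) and 2.45 (H2-K1), and WT cDC1 was the highest of 6 groups for 9 members, Nfil3-/- cDC1 for 7 and Nfil3-/- hybrid cDC for 7.

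**Figure D2:**
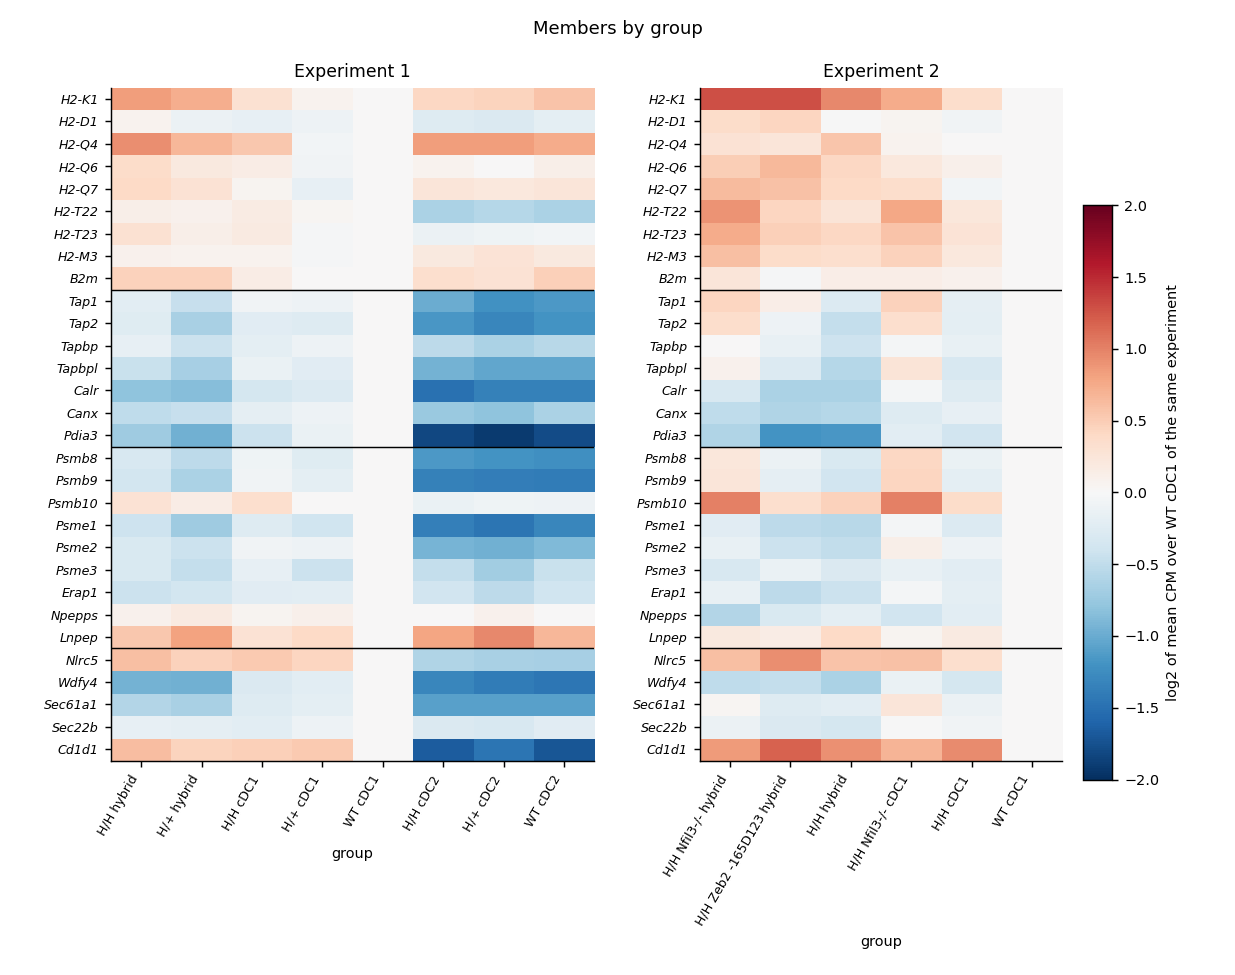
Heat map of the log2 ratio of each group's mean CPM to that of WT cDC1 of the same experiment, for the 30 members (rows, by role) and the 8 and 6 groups (columns). The cDC2 columns are low for Pdia3, Calr, Psmb8, Psmb9, Tap1, Tap2 and Wdfy4, and Cd1d1 is above WT cDC1 in every hybrid and altered cDC1 group.

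The next comparisons asked what the +32H allele does to the module within a cell type. In cDC1 few members passed the threshold, and Cd1d1 was higher in each of the 3 comparisons with WT. H/+ cDC1 differed from WT cDC1 in 1 of 30 members, Cd1d1, which was higher, whereas 1.16% of all genes were higher and 0.312% lower. H/H cDC1 of experiment 1 differed from WT cDC1 in 3 members (Cd1d1 and Psmb10 higher, Pdia3 lower), beside 2.7% of genes higher and 1.47% lower (4.17% in either direction). In experiment 2 the same comparison called 1 member, Cd1d1 (higher), beside 4.37% of genes higher and 1.94% lower (6.32% in either direction). The median log2 fold changes of the members were -0.10, -0.07 and -0.11 in these 3 comparisons, against 0.00 for all genes in each. At an unadjusted p below 0.05 there were 11, 13 and 9 of the 30 members. The share of all genes at that unadjusted cut was not computed, here or in the comparisons below. Such counts therefore do not set the members apart from other genes.

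Cd1d1 stood at 387 and 374 CPM in H/+ cDC1 and at 365 and 368 CPM in H/H cDC1, against 260 and 269 CPM in WT cDC1 of experiment 1. In experiment 2 it stood at 368 and 407 CPM in H/H cDC1 against 192 and 211 CPM in WT cDC1. Every altered library was above every WT library of its experiment. The log2 fold change was 0.52 in H/+ (SE 0.0886, adjusted p = 0.00876), 0.47 in H/H of experiment 1 (SE 0.0886, adjusted p = 0.00492) and 0.94 in H/H of experiment 2 (1.92-fold, SE 0.126, adjusted p = 0.000131). The call in H/+ was lost without WT cDC1 replicate 1 (adjusted p = 0.0918) or replicate 2 (0.0648), that in H/H of experiment 1 without WT cDC1 replicate 1 (0.0583), and that of experiment 2 with none of the 4 omissions. Its near copy Cd1d2, named after its values were seen, was far lower at 4.33 and 3.77 CPM in H/H cDC1 against 1.57 and 1.8 CPM in WT cDC1. Cd1d2 rose in both experiments (log2 1.26 and 1.56, adjusted p = 0.0419 and 0.00977). Whether its counts hold shared reads of Cd1d1 was not tested.

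**Figure D3:**
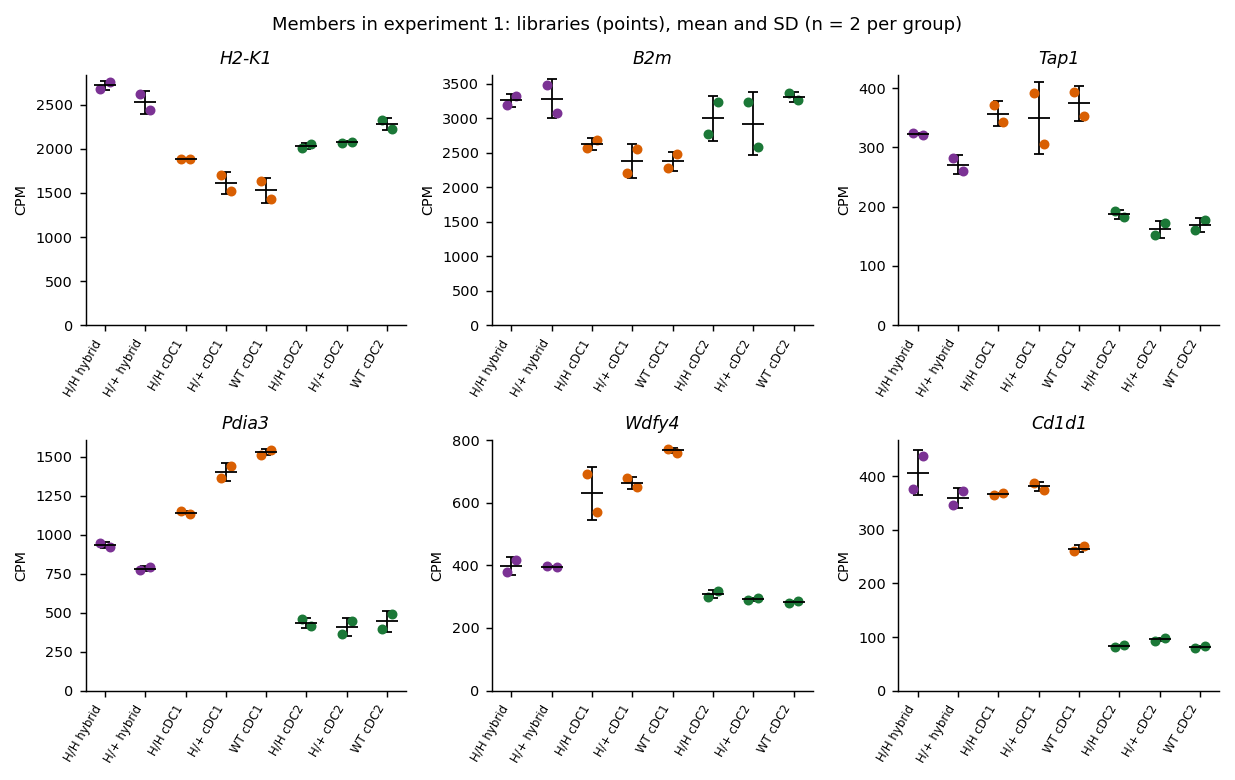
CPM of H2-K1, B2m, Tap1, Pdia3, Wdfy4 and Cd1d1 in the 8 groups of experiment 1, with a point per library and the mean ± SD in black. Cd1d1 lies between 347 and 437 CPM in hybrid cDC and altered cDC1, above WT cDC1 (260 and 269 CPM) and all cDC2 libraries (79.6 to 98.2 CPM).

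Pdia3 stood at 1150 and 1130 CPM in H/H cDC1 against 1510 and 1540 CPM in WT cDC1 of experiment 1 (log2 -0.42, SE 0.112, adjusted p = 0.0446). In experiment 2 it stood at 1310 and 1320 CPM in H/H cDC1 against 1730 and 1700 CPM in WT cDC1 and missed the threshold (log2 -0.38, adjusted p = 0.0609). All H/H libraries were below all WT libraries of their experiment. Psmb10 stood at 180 and 181 CPM in H/H cDC1 against 146 and 142 CPM in WT cDC1 of experiment 1 (log2 0.33, SE 0.0874, adjusted p = 0.0446), and at 129 and 155 CPM in H/H cDC1 against 118 and 103 CPM in WT cDC1 in experiment 2 (log2 0.36, adjusted p = 0.0947). Leaving out any of the 4 libraries ended both calls of experiment 1, with adjusted p of 0.157 to 0.211 for Pdia3 and 0.16 to 0.257 for Psmb10. Wdfy4 stood at 690 and 570 CPM in H/H cDC1 against 773 and 760 CPM in WT cDC1, and at 850 and 909 CPM in H/H cDC1 against 1160 and 1080 CPM in WT cDC1 in experiment 2. Its H/H libraries were below the WT libraries in both experiments, and neither difference passed (log2 -0.28 and -0.36, adjusted p = 0.129 and 0.0617).

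H2-K1 stood at 1890 and 1880 CPM in H/H cDC1 against 1630 and 1430 CPM in WT cDC1, and at 1300 and 1600 CPM in H/H cDC1 against 1220 and 1060 CPM in WT cDC1 in experiment 2. The H/H libraries were higher without passing the threshold (log2 0.30 and 0.34, adjusted p = 0.0877 and 0.186). Nlrc5 likewise had log2 values of 0.52 and 0.33 (adjusted p = 0.124 and 0.204). B2m had 0.14 and 0.08, H2-D1 -0.16 and -0.07, Tap1 -0.07 and -0.18, Tapbp -0.19 and -0.14, and Psmb8 -0.09 and -0.13, none of which passed. In H/+ cDC1 the log2 values of H2-K1 (0.07), H2-D1 (-0.10), B2m (0.00), Tap1 (-0.10), Tapbp (-0.10), Psmb8 (-0.25), Nlrc5 (0.44) and Wdfy4 (-0.21) did not pass either. The listed interferon-stimulated genes behaved otherwise: of 30, 10 were higher in H/+ cDC1, 17 in H/H cDC1 of experiment 1 and 18 in H/H cDC1 of experiment 2, with 0, 0 and 1 lower. Rtp4 had log2 values of 3.57 and 4.87 in H/H cDC1, and Cybb 4.15 and 6.30. Markers of cDC2 moved with the allele as well, at 211 and 232 CPM in H/H cDC1 against 32.4 and 36.1 CPM in WT cDC1 of experiment 1, and at 320 and 564 CPM in H/H cDC1 against 25.9 and 29.7 CPM in WT cDC1 in experiment 2. The 10 cDC1 markers summed to 3870 and 3740 CPM in H/+ cDC1 and 3180 and 2980 CPM in H/H cDC1, against 6160 and 5450 CPM in WT cDC1 of experiment 1, and to 2890 and 2920 CPM in H/H cDC1 against 6080 and 5570 CPM in WT cDC1 in experiment 2. The 6 B cell markers summed to 654 and 567 CPM in H/+ cDC1 and 631 and 628 CPM in H/H cDC1, against 561 and 490 CPM in WT cDC1 of experiment 1, and to 530 and 625 CPM in H/H cDC1 against 426 and 388 CPM in WT cDC1 in experiment 2. Every altered cDC1 library was thus lower in cDC1 markers and higher in cDC2 and B cell markers than the WT libraries of its experiment. The targeted gene Irf8 is 1 of the cDC1 markers and made up part of that fall. Its mean was 834 CPM in H/H against 2270 CPM in WT cDC1 of experiment 1, and 611 against 2140 CPM in experiment 2. The member Wdfy4 is also among the cDC1 markers. The part of these markers in the results for Cd1d1, Pdia3 and Psmb10 was not tested.

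In cDC2 no member passed. edgeR called 0 of 30 in H/+ cDC2 and 0 of 30 in H/H cDC2 against WT cDC2, beside 0.0249% and 0.0811% of all genes in either direction (0.0249% and 0.0686% higher), and DESeq2 also called 0 in each. At an unadjusted p below 0.05 there were 2 members in H/+ cDC2 and 0 in H/H cDC2. The log2 values lay between -0.26 and 0.30 in H/+ cDC2 and between -0.16 and 0.15 in H/H cDC2. Irf8 itself stood at 86.2 and 109 CPM in H/H cDC2 against 48.9 and 47.9 CPM in WT cDC2, above WT and far below any cDC1. Whether the H/H effect was larger or smaller in cDC1 than in cDC2 was tested directly. edgeR called 0 of 30 members in it, beside 1.9% of all genes (1.4% positive, 305 genes in either direction). DESeq2 called 2 members, beside 475 genes in all. At an unadjusted p below 0.05 in edgeR there were 5 members. H2-K1 (log2 0.46, adjusted p = 0.0952) and Cd1d1 (0.43, adjusted p = 0.121) were nearest to the threshold in the positive direction.

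The third set of comparisons placed hybrid cDC beside cDC1 and cDC2 of the same genotype. Against cDC2, hybrid cDC had more of most of the machinery and of Cd1d1, and no member was lower. Against cDC1 they had less Wdfy4 and less of several loading and proteasome genes, and more H2-K1. In H/+ mice 14 of 30 members were higher and 0 lower in hybrid cDC than in cDC2, beside 10.3% of genes higher and 8.71% lower, and in H/H mice 18 were higher and 0 lower, beside 12.9% and 12.5%. Against cDC1, 5 members were higher and 7 lower in H/+ hybrid cDC, beside 9.77% of genes higher and 6.68% lower. In H/H mice 1 was higher and 4 lower in experiment 1 (5.24% and 2.61% of genes, 7.85% in either direction) and again 1 higher and 4 lower in experiment 2 (7.24% and 5.25%). The median log2 fold changes against cDC2 were 0.31 in H/+ and 0.42 in H/H for the members, against 0.00 and -0.03 for all genes. Those against cDC1 were -0.08 in H/+ and -0.02 and -0.10 in H/H, against 0.01 for all genes in each. The same hybrid libraries enter the comparisons with cDC1 and with cDC2.

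**Figure D4:**
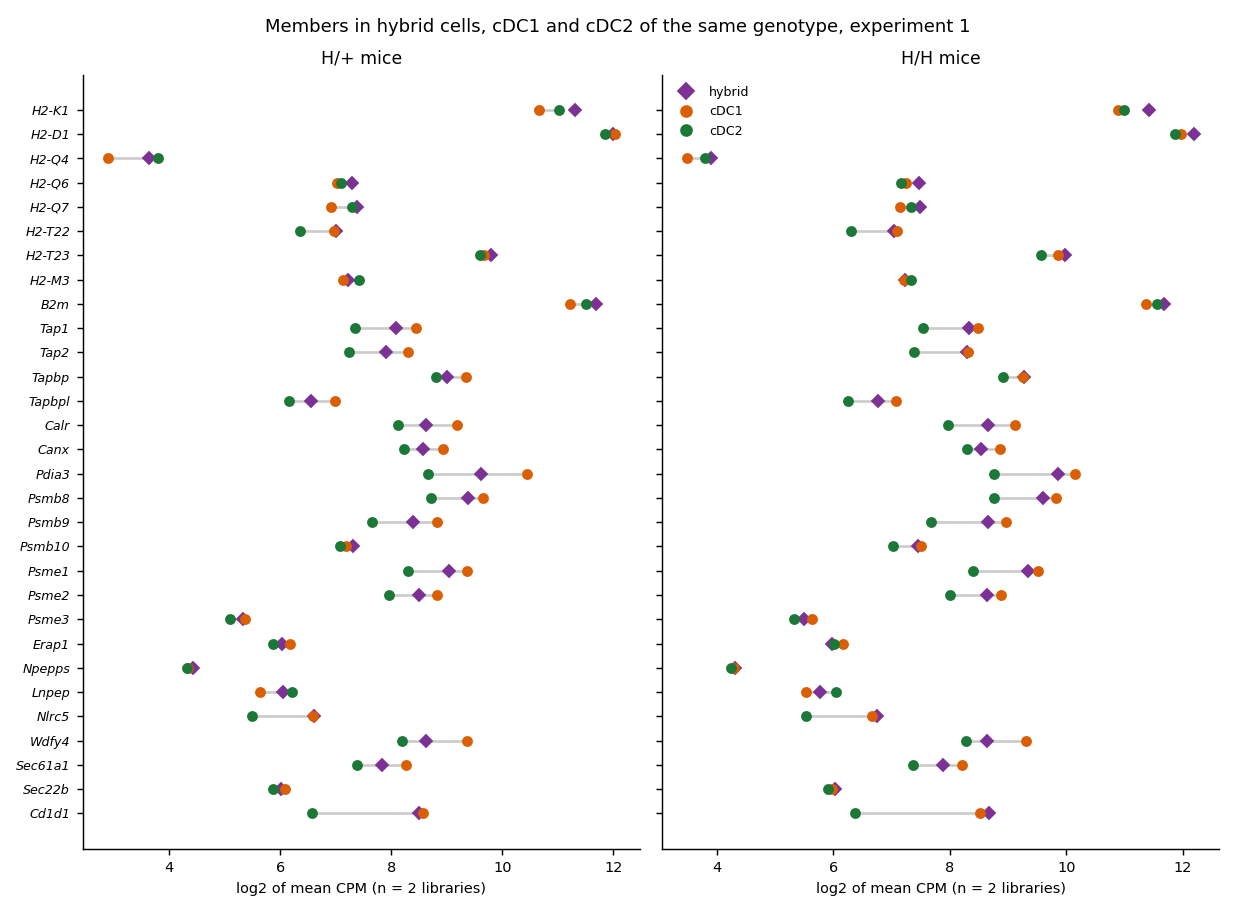
Log2 of the mean CPM of each of the 30 members in hybrid cDC (diamonds), cDC1 and cDC2 (circles) of the same genotype, with H/+ and H/H mice of experiment 1 in separate panels. The hybrid mean lies between the other means for 21 members in H/+ and 17 in H/H mice, and above both for 9 and 12. Both hybrid libraries lie above all cDC1 and cDC2 libraries for 2 members in H/+ and 7 in H/H mice. Positions were counted for the members only.

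Wdfy4 stood at 397 and 395 CPM in H/+ hybrid cDC, against 678 and 649 CPM in H/+ cDC1 and 289 and 295 CPM in H/+ cDC2. It was below every cDC1 library and above every cDC2 library, with log2 values of -0.75 against cDC1 (SE 0.0955, adjusted p = 5.4e-05) and 0.44 against cDC2 (adjusted p = 0.00435). In H/H mice it stood at 378 and 418 CPM in hybrid cDC, against 690 and 570 CPM in cDC1 and 300 and 317 CPM in cDC2. The log2 values were -0.66 against cDC1 (SE 0.0954, adjusted p = 0.000359) and 0.37 against cDC2 (adjusted p = 0.0102), and the call against cDC2 was lost without H/H hybrid replicate 2 (0.114) or H/H cDC2 replicate 1 (0.0868). In experiment 2 Wdfy4 stood at 732 and 718 CPM in H/H hybrid cDC against 850 and 909 CPM in H/H cDC1, lower in both libraries but not past the threshold (log2 -0.28, adjusted p = 0.102).

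Pdia3 stood at 772 and 792 CPM in H/+ hybrid cDC, against 1360 and 1440 CPM in cDC1 and 365 and 447 CPM in cDC2, and thus between the 2 other cell types. Its log2 values were -0.84 against cDC1 (SE 0.112, adjusted p = 7.47e-05) and 0.94 against cDC2 (adjusted p = 2.63e-05). In H/H mice it stood at 945 and 918 CPM in hybrid cDC, against 1150 and 1130 CPM in cDC1 and 456 and 411 CPM in cDC2. The H/H value fell short of the threshold against cDC1 in experiment 1 (log2 -0.29, adjusted p = 0.146) and passed in experiment 2, at 741 and 797 CPM in hybrid cDC against 1310 and 1320 CPM in cDC1 (log2 -0.78, SE 0.115, adjusted p = 0.000318). Calr was lower than in cDC1 in H/+ mice (log2 -0.57, adjusted p = 0.00124) and in H/H mice of both experiments (-0.46 and -0.37, adjusted p = 0.0125 and 0.0297). Each H/H call of Calr was lost in leaving out libraries, in experiment 1 without H/H hybrid replicate 2 (0.158) or H/H cDC1 replicate 2 (0.16), and in experiment 2 without any 1 of the 4 (0.066 to 0.234).

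Tap1 stood at 282 and 260 CPM in H/+ hybrid cDC, against 392 and 306 CPM in cDC1 and 153 and 172 CPM in cDC2. In H/H mice it stood at 324 and 321 CPM in hybrid cDC, against 371 and 342 CPM in cDC1 and 193 and 182 CPM in cDC2. The hybrid libraries were below the cDC1 and above the cDC2 libraries in both genotypes. Against cDC2 the log2 values were 0.74 in H/+ and 0.78 in H/H (adjusted p = 0.000361 and 0.000152). Against cDC1 they were -0.36 (adjusted p = 0.0441) and -0.15 (0.545), and without H/+ cDC1 replicate 1 the H/+ value was -0.17 (0.408), and without hybrid replicate 1 or 2 it was -0.42 (0.0927) or -0.31 (0.253). Psmb8 was lower than in H/+ cDC1 (-0.27, adjusted p = 0.0463) and lost the call without H/+ cDC1 replicate 1 (0.275) or either hybrid library (0.138 and 0.216). Psmb8 and Psmb9 were higher than in cDC2 in both genotypes (log2 0.67 and 0.75 in H/+, 0.83 and 0.99 in H/H), and Psmb9 was lower than in cDC1 in both genotypes of experiment 1 (-0.43 and -0.30, adjusted p = 0.00187 and 0.0369). Sec61a1 was likewise lower than in cDC1 (-0.44 and -0.33) and higher than in cDC2 (0.44 and 0.50). The H/H calls of Psmb9 and Sec61a1 against cDC1 were lost without any 1 of the 4 libraries (adjusted p of 0.118 to 0.241 and 0.0661 to 0.292). Tapbp passed against cDC2 in H/H mice (0.36, adjusted p = 0.0292) and in no other hybrid comparison, and the call was lost without H/H cDC2 replicate 2 (0.21) or either hybrid library (0.0536 and 0.195).

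H2-K1 was the member that passed as higher in hybrid cDC than in both other cell types, in H/+ and in H/H mice. It stood at 2620 and 2440 CPM in H/+ hybrid cDC, against 1700 and 1520 CPM in cDC1 and 2070 and 2080 CPM in cDC2. In H/H mice it stood at 2680 and 2760 CPM in hybrid cDC, against 1890 and 1880 CPM in cDC1 and 2010 and 2060 CPM in cDC2. No hybrid library overlapped with a cDC1 or cDC2 library. Against cDC1 the log2 values were 0.65 in H/+ (SE 0.0912, adjusted p = 0.000125), 0.53 in H/H of experiment 1 (SE 0.091, adjusted p = 0.00174) and 0.62 in H/H of experiment 2 (SE 0.136, adjusted p = 0.00666). The last of these rested on 2120 and 2340 CPM in hybrid cDC against 1300 and 1600 CPM in cDC1, and was lost without H/H hybrid replicate 2 (0.0851) or H/H cDC1 replicate 1 (0.0617). Against cDC2 the log2 values were 0.28 in H/+ (adjusted p = 0.0405) and 0.42 in H/H (0.00327), and the H/+ call was lost without any 1 of the 4 libraries (0.0666 to 0.224). B2m stood at 3480 and 3080 CPM in H/+ hybrid cDC against 2210 and 2560 CPM in cDC1 (log2 0.46, adjusted p = 0.0144), lost without hybrid replicate 1 (0.137) or cDC1 replicate 1 (0.118), and in H/H mice it did not pass in either experiment (0.31 and 0.06). H2-Q4 (0.73), H2-Q7 (0.45) and the aminopeptidase gene Lnpep (0.41) were also higher in H/+ hybrid cDC than in cDC1. Without H/+ hybrid replicate 1 these 3 calls were lost (adjusted p = 0.146, 0.136 and 0.228), without H/+ cDC1 replicate 1 those of H2-Q4 (0.15) and Lnpep (0.0503), and without H/+ cDC1 replicate 2 those of H2-Q7 (0.0846) and Lnpep (0.136). H2-D1 passed in no hybrid comparison, with log2 values between -0.03 and 0.33. Per transcript length the ratio of H2-K1 to H2-D1 lay between 0.496 and 0.573 in the 4 hybrid libraries of experiment 1, above the 0.318 to 0.416 of the 4 altered cDC1 libraries and overlapping the 0.457 to 0.542 of the 4 altered cDC2 libraries.

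Cd1d1 and Nlrc5 in hybrid cDC were near cDC1. Cd1d1 stood at 347 and 373 CPM in H/+ hybrid cDC, against 387 and 374 CPM in cDC1 and 93.5 and 98.2 CPM in cDC2, and at 377 and 437 CPM in H/H hybrid cDC, against 365 and 368 CPM in cDC1 and 81.5 and 85.1 CPM in cDC2. Against cDC2 it was 3.76-fold higher in H/+ (log2 1.91, SE 0.0917, adjusted p = 2.71e-09) and 4.88-fold higher in H/H mice (2.29, SE 0.0929, adjusted p = 3.16e-10). The differences from cDC1 did not pass (-0.08 and 0.15). Nlrc5 stood at 111 and 83.9 CPM in H/+ hybrid cDC against 49.6 and 40.3 CPM in cDC2, and at 105 and 110 CPM in H/H hybrid cDC against 45.9 and 47.1 CPM in cDC2 (log2 1.11 and 1.21, adjusted p = 0.000433 and 0.000148). Its differences from cDC1 did not pass (0.02 and 0.08). H2-T22 also stood with cDC1, at log2 0.65 and 0.74 over cDC2 and 0.04 and -0.04 against cDC1. Psme1, Psme2 and Tap2 passed against cDC2 in both genotypes, the call of Psme2 in H/+ mice being lost without H/+ cDC2 replicate 2 (0.0689) or H/+ hybrid replicate 1 (0.0885). H2-T23 (0.42), Psmb10 (0.42) and Tapbpl (0.50) passed against cDC2 in H/H mice, with H/+ values of 0.20, 0.24 and 0.38 that did not pass. The H/H call of Tapbpl was lost without any 1 of the 4 libraries (0.0597 to 0.171).

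The 14 members higher than cDC2 in H/+ mice were all among the 18 of H/H mice (100% and 77.8% of the lists), and the 4 lower than cDC1 in H/H mice of experiment 1 (Calr, Psmb9, Sec61a1 and Wdfy4) were all among the 7 of H/+ mice (100% and 57.1%). Experiment 1 and experiment 2 shared Calr among the 4 lower and H2-K1 as the 1 higher member of H/H hybrid cDC against cDC1. The 4 lower in experiment 2 were Calr, Pdia3, Canx and Psme2. Canx stood at 322 and 305 CPM in H/H hybrid cDC against 443 and 386 CPM in H/H cDC1. Psme2 stood at 367 and 319 CPM in H/H hybrid cDC against 439 and 462 CPM in H/H cDC1. Both calls were lost with only the groups compared (adjusted p = 0.0605 and 0.0633). Overlaps of these lists over all genes were not computed. Leaving out single libraries moved the H/H counts against cDC1 to between 2 and 3 in experiment 1 and to between 1 and 3 in experiment 2, for each of the 4 libraries. Direct comparison of H/H with H/+ hybrid cDC gave 0 members by edgeR, beside 0.131% of all genes, and 0 by DESeq2. At an unadjusted p below 0.05 there were 8 members.

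Other gene groups moved in the same comparisons. Of 15 standard proteasome genes, 8 were lower than in cDC1 and 8 higher than in cDC2 in H/+ hybrid cDC. In H/H hybrid cDC 1 was lower than in cDC1 in experiment 1, 6 in experiment 2, and 11 were higher than in cDC2. Of 10 folding genes, 6 were lower than in cDC1 and 7 higher than in cDC2 in H/+ mice, and 3 and 4 were lower than in cDC1 in the H/H comparisons. Of 30 interferon-stimulated genes, 17 were higher and 2 lower in H/+ hybrid cDC than in cDC1, and 9 and 8 were higher and 0 and 1 lower in H/H hybrid cDC of experiments 1 and 2. The cDC1 markers summed to 1630 to 2110 CPM in the hybrid libraries of experiment 1, against 2980 to 3870 CPM in altered cDC1 and 495 to 597 CPM in altered cDC2. The cDC2 markers summed to 1370 to 2020 CPM in the hybrid libraries of experiment 1, against 114 to 232 CPM in altered cDC1 and 1290 to 1470 CPM in altered cDC2, and the 8 monocyte and macrophage markers to 520 to 668 CPM in hybrid cDC, against 102 to 162 CPM in altered cDC1 and 705 to 838 CPM in altered cDC2. None of these markers was at 0. Their part in the values of the members was not tested.

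In experiment 2, loss of Nfil3 in H/H mice was set against H/H alone. Genes for antigen processing were higher in Nfil3-/- cells of both types: the transporter gene Tap1, the immunoproteasome genes Psmb8, Psmb9 and Psmb10, and Tapbpl. In cDC1 5 of 30 members were higher and 0 lower, beside 1.34% of all 14504 genes higher and 1.69% lower (3.03% in either direction). In hybrid cDC 8 were higher and 0 lower, beside 1.93% and 1.8% (3.73% in either direction). All 5 of the cDC1 list were in the hybrid list (100% and 62.5% of the lists). The same overlap was not computed over all genes, so these shares have no base to be judged against. The hybrid list also held Tap2, H2-T22 and Pdia3. The median log2 fold change of the members was 0.22 in cDC1 and 0.30 in hybrid cDC, against -0.02 and -0.03 for all genes. Positive values were found for 26 and 25 of the 30 members, most of which did not pass the threshold. The share of all genes with positive values was not computed.

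**Figure D5:**
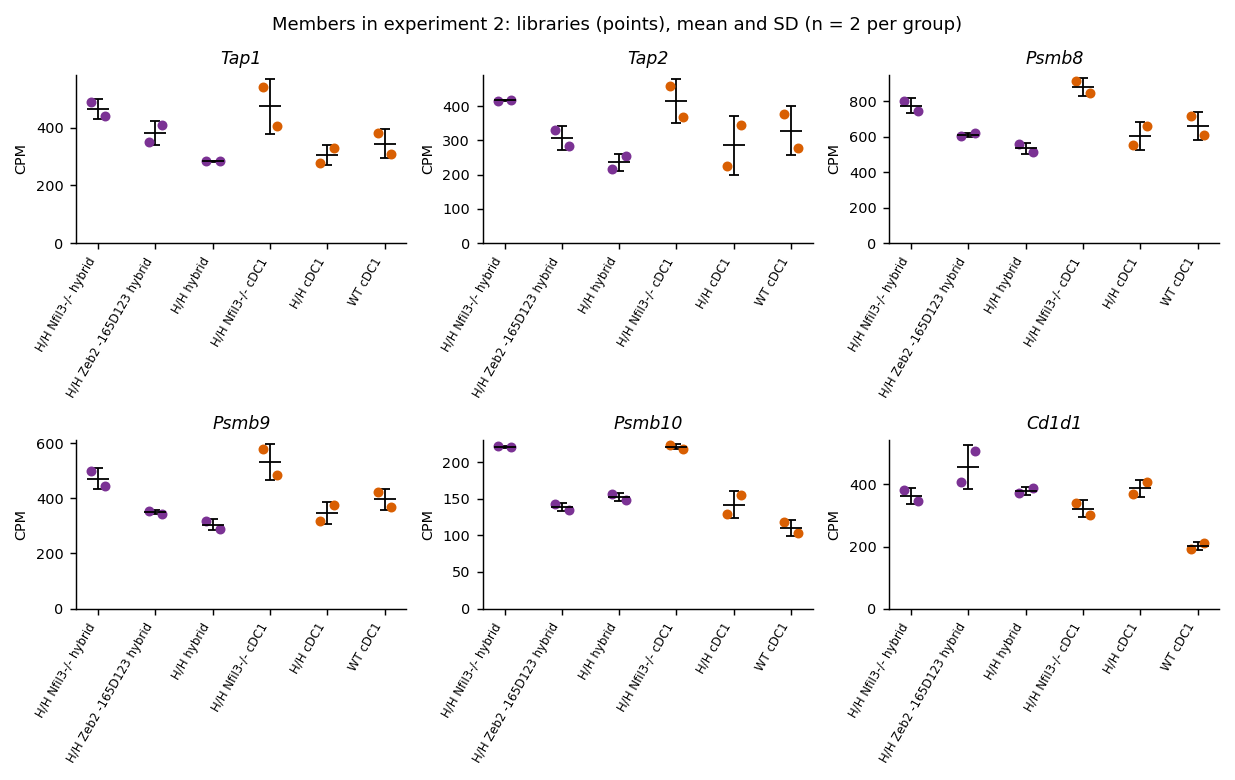
CPM of Tap1, Tap2, Psmb8, Psmb9, Psmb10 and Cd1d1 in the 6 groups of experiment 2, with a point per library and the mean ± SD in black. For Tap1 the Nfil3-/- libraries lie between 407 and 541 CPM and the H/H libraries between 279 and 328 CPM.

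Tap1 stood at 541 and 407 CPM in Nfil3-/- cDC1 against 279 and 328 CPM in H/H cDC1 (log2 0.64, SE 0.148, adjusted p = 0.0248). In hybrid cDC it stood at 489 and 439 CPM in Nfil3-/- mice against 283 and 285 CPM in H/H mice (log2 0.71, SE 0.149, adjusted p = 0.0131). All 4 Nfil3-/- libraries were above all 4 H/H libraries. Psmb9, which shares its promoter interval with Tap1, stood at 578 and 486 CPM in Nfil3-/- cDC1 against 317 and 375 CPM in H/H cDC1 (log2 0.62, SE 0.128, adjusted p = 0.012) and at 500 and 444 CPM in Nfil3-/- hybrid cDC against 318 and 289 CPM in H/H hybrid cDC (log2 0.64, adjusted p = 0.00946). Psmb8 stood at 914 and 844 CPM in Nfil3-/- cDC1 against 551 and 662 CPM in H/H cDC1 (log2 0.54, SE 0.123, adjusted p = 0.0238) and at 804 and 745 CPM in Nfil3-/- hybrid cDC against 557 and 512 CPM in H/H hybrid cDC (log2 0.54, adjusted p = 0.023). Neither gene's groups overlapped in either cell type. Psmb10 stood at 223 and 218 CPM in Nfil3-/- cDC1 against 129 and 155 CPM in H/H cDC1 (log2 0.64, SE 0.118, adjusted p = 0.00613) and at 222 and 220 CPM in Nfil3-/- hybrid cDC against 156 and 148 CPM in H/H hybrid cDC (log2 0.54, adjusted p = 0.0173). Psmb10 had close values in the 2 Nfil3-/- groups, and WT cDC1 had the lowest values of the experiment at 118 and 103 CPM.

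Tapbpl stood at 169 and 144 CPM in Nfil3-/- cDC1 against 91.4 and 116 CPM in H/H cDC1 (log2 0.59, adjusted p = 0.0225), and at 137 and 140 CPM in Nfil3-/- hybrid cDC against 87.9 and 86.5 CPM in H/H hybrid cDC (0.67, adjusted p = 0.0102). Tap2 stood at 415 and 418 CPM in Nfil3-/- hybrid cDC against 218 and 254 CPM in H/H hybrid cDC (log2 0.82, SE 0.199, adjusted p = 0.0395), and at 460 and 369 CPM in Nfil3-/- cDC1 against 226 and 346 CPM in H/H cDC1, where it did not pass (0.53, adjusted p = 0.205). Again no Nfil3-/- library overlapped with its H/H group. Pdia3 stood at 1080 and 1190 CPM in Nfil3-/- hybrid cDC against 741 and 797 CPM in H/H hybrid cDC (log2 0.56, adjusted p = 0.0108), and H2-T22 at 184 and 171 CPM in Nfil3-/- hybrid cDC against 125 and 102 CPM in H/H hybrid cDC (0.64, adjusted p = 0.0368). The call of H2-T22 in hybrid cDC was lost with the replicate number as a block (adjusted p = 0.0534), with a term for libraries holding Xist (0.0769), with upper-quartile factors (0.0504) and without any 1 of the 4 libraries (0.0625 to 0.321). That of Tap2 was lost with the block (adjusted p = 0.0543) and without any 1 of the 4 libraries (log2 0.75 to 0.94). Tapbpl (log2 0.66 to 0.71), Psmb8 (0.48 to 0.63) and Psmb10 (0.5 to 0.6) lost the hybrid call without any 1 of the 4 too. Without H/H hybrid replicate 2, Tap1 (0.72), Pdia3 (0.62) and Psmb9 (0.57) lost theirs as well. In cDC1 Tap1, Tapbpl, Psmb8 and Psmb9 lost the call with only the groups compared (adjusted p = 0.0564 to 0.0949). They also lost it without replicate 1 of H/H or of Nfil3-/- cDC1 (log2 0.42 to 0.54). In cDC1 Pdia3 (0.18) and H2-T22 (0.54, adjusted p = 0.0912) did not pass.

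The classical heavy chains H2-K1 and H2-D1 and the light chain B2m were not shown to change with Nfil3. The log2 values in cDC1 and in hybrid cDC were 0.40 and 0.32 for H2-K1, 0.12 and 0.38 for H2-D1, and 0.05 and 0.10 for B2m, none of which passed. Tapbp had 0.10 and 0.42 (adjusted p = 0.729 and 0.0622), Nlrc5 0.25 and 0.03, and Wdfy4 0.22 and 0.12. Per transcript length the ratio of Psmb10 to Psmb7 was 2.97 and 2.74 in Nfil3-/- cDC1 against 1.71 and 2.33 in H/H cDC1, and 4.19 and 4.26 in Nfil3-/- hybrid cDC against 3.02 and 3.41 in H/H hybrid cDC. An effect of Nfil3 loss that differed between hybrid cDC and cDC1 was called for 0 of 30 members by edgeR, beside 0.00689% of all genes. DESeq2 also called 0. At an unadjusted p below 0.05 there was 1 member. Nfil3-/- hybrid cDC differed from Nfil3-/- cDC1 in 1 member, beside 4.02% of all genes higher and 1.26% lower (5.28% in either direction). That was H2-K1, at 2870 and 2690 CPM in hybrid cDC against 2120 and 1710 CPM in cDC1 (log2 0.54, SE 0.136, adjusted p = 0.0278), a call lost without Nfil3-/- cDC1 replicate 2 (0.364) or either hybrid library (0.0974 and 0.201).

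The number of Nfil3 calls depended on single libraries, and no called member reversed its direction without 1 of them. In cDC1 it was 0 without H/H cDC1 replicate 1, 9 without H/H cDC1 replicate 2, and 1 without Nfil3-/- cDC1 replicate 1. In hybrid cDC it was 0 without H/H hybrid replicate 2, 1 without H/H hybrid replicate 1, 1 without Nfil3-/- hybrid replicate 1 and 2 without Nfil3-/- hybrid replicate 2. The log2 value of Tap1 without 1 library lay between 0.43 and 0.85 in cDC1.

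Other measured values moved with Nfil3 loss. The cDC1 markers summed to 3600 and 3500 CPM in Nfil3-/- cDC1 against 2890 and 2920 CPM in H/H cDC1, and to 2780 and 2910 CPM in Nfil3-/- hybrid cDC against 2060 and 1980 CPM in H/H hybrid cDC. The cDC2 markers summed to 146 and 132 CPM in Nfil3-/- cDC1 against 320 and 564 CPM in H/H cDC1, and to 861 and 989 CPM in Nfil3-/- hybrid cDC against 1590 and 2030 CPM in H/H hybrid cDC. Nfil3-/- libraries of both types were thus higher in cDC1 markers and lower in cDC2 markers. Of the 8 members called in hybrid cDC, 7, all but Psmb10, were also higher in WT cDC1 than in WT cDC2. Of all 30 members, 18 were higher in WT cDC1, so the module itself leaned that way. The same share of all genes higher in Nfil3-/- hybrid cDC was not computed. Stat2, a transducer of interferon signals, had log2 values of 0.77 in Nfil3-/- cDC1 and 0.76 in Nfil3-/- hybrid cDC against their H/H controls. Irf1 had 0.51 in both (adjusted p = 0.0559 in cDC1 and 0.0483 in hybrid cDC). Of 30 interferon-stimulated genes, 9 were higher in Nfil3-/- cDC1 (Rtp4 at log2 1.60, Ifit1 at 1.30, Irgm1 at 1.28) and 5 in hybrid cDC (Igtp at 1.35, Irgm1 at 1.31, Gbp2 at 0.89), and none was lower. The 6 neutrophil markers summed to 13.6 and 10.4 CPM in Nfil3-/- cDC1 against 0.256 and 0.179 CPM in H/H cDC1, where Ly6g, Elane and Camp were at 0, and to 24.4 and 40.0 CPM in Nfil3-/- hybrid cDC against 2.93 and 3.55 CPM in H/H hybrid cDC, where Ly6g was at 0. The 5 erythroid markers summed to 32.3 and 76.6 CPM in Nfil3-/- cDC1 against 4.71 and 6.43 CPM in H/H cDC1, and the 6 B cell markers to 934 and 743 CPM in Nfil3-/- hybrid cDC against 636 and 537 CPM in H/H hybrid cDC. Xist was present in replicate 2 of both Nfil3-/- groups and in neither replicate of the H/H groups. With a term for libraries holding Xist, all 5 calls of members in cDC1 and 7 of the 8 in hybrid cDC remained, H2-T22 being the one lost. Whether the other values shared in those of the members was not tested.

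The Zeb2 -165D123 change was compared with H/H hybrid cDC. edgeR called 0 of 30 members, beside 4.03% of all genes (2.23% higher), and DESeq2 called 0. At an unadjusted p below 0.05 there were 7 members. The median log2 fold change was 0.11 for the members and 0.00 for all genes. Nlrc5 stood at 149 and 161 CPM in Zeb2 -165D123 hybrid cDC against 128 and 114 CPM in H/H hybrid cDC (log2 0.36, adjusted p = 0.186). Tap1 stood at 351 and 409 CPM in Zeb2 -165D123 hybrid cDC against 283 and 285 CPM in H/H hybrid cDC (0.42, adjusted p = 0.152), and H2-K1 at 2710 and 2880 CPM in Zeb2 -165D123 hybrid cDC against 2120 and 2340 CPM in H/H hybrid cDC (0.32, adjusted p = 0.243). These 3 genes were higher in both libraries and missed the threshold. H2-D1 (0.44), B2m (-0.15), Tapbp (0.26), Psmb8 (0.19) and Wdfy4 (0.15) did not pass either. A p that misses the threshold does not show that the groups were alike. The cDC1 markers summed to 2790 and 2390 CPM in Zeb2 -165D123 hybrid cDC against 2060 and 1980 CPM in H/H hybrid cDC. The cDC2 markers summed to 1280 and 1290 CPM against 1590 and 2030 CPM in the same groups. Irf8 was higher (log2 0.55, adjusted p = 0.0356). Xist stood at 302 CPM in Zeb2 -165D123 replicate 2, and with a term for it 0 members passed. The part of the markers in the members' values was not tested.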

How the data were processed

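Bulk RNA-seq was analysed in 28 libraries of 14 groups. The authors deposited unscaled expected counts (estimates of reads for each Ensembl gene) in a table for each experiment. The submitters' processing notes name DRAGEN, bcl2fastq and edgeR with no version, and the genome build, annotation and counting settings are not given in the sources used here. Of the deposited values 10.8% and 10.2% were not whole, and values were rounded. Repeated lines (287 per table) were kept once, leaving 55487 genes, of which 99.4% of the IDs occur in GENCODE M21 (GRCm38). That annotation gave coordinates and, as transcript length, the summed length of all annotated exons of a gene. Per the labels' protocols, cDNA was made with a SMARTer Ultra Low kit, which does not mark strand, so overlapping genes on opposite strands cannot be told apart.

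Each experiment was fitted alone with edgeR 4.0.16 in R 4.3.3, with a coefficient per group, filterByExpr, TMM factors and robust quasi-likelihood tests, on 16036 and 14504 genes with 8 and 6 residual degrees of freedom. In each of 18 contrasts p was adjusted by Benjamini-Hochberg over the genes tested, and 0.05 was the threshold. CPM used TMM-scaled library sizes. On simulated counts the fit recovered 67.2% of 2-fold changes in the WT cDC1 against cDC2 contrast (16036 genes). It recovered 62.7% in the H/H cDC1 against WT cDC1 contrast of experiment 2 (14504 genes). The changed genes were few and drawn from all but the lowest levels, so these shares do not give the recovery for the members. Replicates differed beyond sampling noise in every group. Library totals of 17.5 to 38.2 M leave counting error small for these members, so the number of libraries limits the precision.

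The members and gene lists were chosen with earlier results of these data known. Fixed names in each contrast were H2-K1, H2-D1, B2m, Tap1, Tapbp, Psmb8, Nlrc5 and Wdfy4, with up to 6 further members past the threshold whose replicates did not overlap and up to 3 genes of each of 7 other lists. 1 gene that this rule names is not reported here. Cd1d2, H2-T10, Psmb5, Psmb6 and Psmb7, members named to account for the list, and libraries named for a lost call were added after values were seen. Motifs were searched as letters, and sequences are RefSeq's (GRCm38.p6). Alternatives were upper-quartile factors, no filter, the replicate number as a block, a term for Xist, DESeq2 1.42.0, only the groups compared, each library left out, and both experiments pooled.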

Additional observations from a re-analysis of the deposited data

Results flagged for a closer look

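In 3 cases the 2 replicates of an altered group all moved one way in one setting and the opposite way in another, and these differences were not tested. For Psmb8 the H/+ effect (H/+ against WT) was -0.25 on the log2 scale in cDC1 and 0.03 in cDC2, a difference of -0.28. For Wdfy4 the H/+ effect was -0.21 in cDC1 and 0.04 in cDC2, a difference of -0.25. For Cd1d1 hybrid cDC minus cDC1 was -0.08 in H/+ mice and 0.15 in H/H mice, a difference of -0.23 (H/+ minus H/H).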

How the results depend on the processing

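Counts are of members past the threshold out of 30, with the count of the fit as reported in brackets. In H/+ against WT cDC1 (1) there were 4 with no filter, 4 with the replicate block, 4 with the Xist term, 3 with DESeq2 and 0 with only the groups compared, where the counts over all genes were 674, 599, 599, 578 and 40 against 236. In H/H against WT cDC1 of experiment 1 (3) there were 5 with DESeq2 and 8 with both experiments pooled, and in experiment 2 (1) 2 with no filter and 3 with DESeq2. In H/H against H/+ hybrid cDC (0) and in the Zeb2 -165D123 comparison (0) there was 1 with no filter, and in the H/H effect in cDC1 minus that in cDC2 (0) there were 1 with no filter and 2 with DESeq2. With only the groups compared there were 6 in H/+ hybrid cDC against cDC1 (12), 9 in H/H hybrid cDC against cDC1 of experiment 1 (5; 13 with both experiments pooled) and 3 of experiment 2 (5), 1 for Nfil3 in cDC1 (5; 8 with no filter), 16 for Nfil3 in hybrid cDC (8) and 3 in Nfil3-/- hybrid cDC against Nfil3-/- cDC1 (1; 3 with upper-quartile factors and 3 with DESeq2). Without 1 replicate the counts were 20 to 22 in WT cDC1 against cDC2 (22), 0 to 2 in H/+ against WT cDC1, 0 to 1 in H/H against WT cDC1 of experiment 1 and 1 to 2 of experiment 2, and 0 to 0 in both cDC2 comparisons, in H/H against H/+ hybrid cDC, in the Zeb2 comparison and in both differences of effects. They were 8 to 13 in H/+ hybrid cDC against cDC1, 12 to 14 against cDC2, 2 to 3 in H/H hybrid cDC against cDC1 of experiment 1, 1 to 3 of experiment 2, 15 to 16 against cDC2 (18), 0 to 9 for Nfil3 in cDC1, 0 to 2 for Nfil3 in hybrid cDC and 0 to 1 in Nfil3-/- hybrid cDC against cDC1. Counts over all genes moved as well. With only the groups compared they were 1953 against 541 for Nfil3 in hybrid cDC and 306 against 440 for Nfil3 in cDC1. In H/+ hybrid cDC against cDC1 they were 1733 against 2639. With no filter they were 772 against 440 for Nfil3 in cDC1. With both experiments pooled they were 1802 against 668 in H/H against WT cDC1. The causes were not tested, apart from fewer libraries in the fits that leave one out. Over all members and alternatives 5443 values kept their side of the threshold, 118 passed it where the reported fit did not, and 139 no longer passed. None that counted as called reversed its direction.

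The labels do not say that replicate numbers pair animals, and deviations of same-numbered libraries correlated between 0.04 and 0.342 in experiment 1 and as low as -0.205 in experiment 2. In experiment 1 every replicate 2 and no replicate 1 held Xist, so the replicate block is the same fit as the Xist term. With the block the counts were 23 in WT cDC1 against cDC2, 4 in H/+ against WT cDC1, 16 in H/+ hybrid cDC against cDC1, 5 for Nfil3 in cDC1 and 6 for Nfil3 in hybrid cDC, where those of H2-T22 and Tap2 were lost, and that of Canx was lost in H/H hybrid cDC against cDC1 of experiment 2 (adjusted p = 0.0562). Upper-quartile factors ended the calls of Psmb10 in H/H against WT cDC1 of experiment 1 (0.0577) and H2-K1 in H/+ hybrid cDC against cDC2 (0.0509), and no filter ended both too (0.112 and 0.0567). In the simulations for WT cDC1 against cDC2, with 2 libraries a group, 28.4% of 1.5-fold changes were recovered. They changed 67 genes by that fold, drawn from all but the lowest levels, whereas 44.0% of genes were called in the real contrast. The simulated share therefore does not give the recovery for these members.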
